A study of Mus musculus with 19 samples.

Results

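Gene expression after an electrically induced seizure was compared with that after sham handling in mice that lack Fabp7, using 9 of the 19 RNA-seq libraries of the series. The members were chosen by genotype and treatment as the sample labels give them, and they comprised 4 libraries of Fabp7 KO sham mice (replicates 2 to 5) and 5 of Fabp7 KO MEST mice (replicates 1 to 5), with 1 library per mouse. All 9 mice were C57BL/6NJ males that carried the Fabp7 KO, so the deletion was shared by the shocked mice and their controls, and tissue was taken at ZT20, during the dark phase. MEST stands for maximal electroshock seizure threshold. Shocked mice received a single shock per day through clips on the ears, at 20 mA on the first day and 2 mA more on each following day, until both hind limbs went into tonic extension, and were then killed. Sham mice went through the same handling with no current. A block holding hippocampus and cortex of 1 hemisphere was used for RNA. The labels give neither the number of daily shocks per mouse nor the minutes between the seizure and tissue collection. The KO sham mice were 17.3 to 17.9 weeks old and the KO MEST mice 18.9 to 19.4 weeks old, so the ages of the groups did not overlap, and an effect of age and an effect of the shocks cannot be told apart. The other 10 libraries of the series, 5 WT sham (15.9 to 16.3 weeks) and 5 WT MEST (17.4 to 18.0 weeks), served for comparison.

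Fabp7 encodes the brain fatty acid binding protein, which astrocytes, oligodendrocyte precursors and neural stem cells use to carry polyunsaturated fatty acids inside the cell. A tonic seizure makes neurons fire together at high rates. Calcium entry and kinase cascades then switch on immediate early genes within minutes, among them the AP-1 subunit Fos, the zinc finger factors of the Egr family and Npas4, a factor that depends on calcium entry. Their mRNAs decay within hours, and a second wave follows, which encodes synaptic proteins, neuropeptides and the growth factor Bdnf. The collagens considered further on are made in the brain mainly by meningeal and vascular cells and form basement membranes and fibrils.

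The promoters of a pair of immediate early genes and of a pair of the collagen genes that rose most are shown, because the first pair missed the threshold in KO tissue and the second passed it. They are the 250 bases before the annotated start of each gene in RefSeq (build GRCm38.p6), written 5′ to 3′ in the direction of the gene, with matched motifs in capitals. The motifs searched on both strands were the core of the cAMP response element (TGACGT), the AP-1 site (TGANTCA), the GC box (GGGCGG) and the CArG box, which do not share letters in the sites shown. The Fos promoter lies at chr12:85473640-85473889 on the plus strand and held the response element core at positions -66 to -61 from the start and a GC box on the opposite strand. The Npas4 promoter lies at chr19:4989972-4990221 on the minus strand and held a pair of cores, in opposite directions, at -180 to -175 and -169 to -164. The Col6a1 promoter lies at chr10:76726045-76726294 on the minus strand and held an AP-1 site at -90 to -84. The Col27a1 promoter lies at chr4:63215162-63215411 on the plus strand and held a GC box at -85 to -80.
Fos: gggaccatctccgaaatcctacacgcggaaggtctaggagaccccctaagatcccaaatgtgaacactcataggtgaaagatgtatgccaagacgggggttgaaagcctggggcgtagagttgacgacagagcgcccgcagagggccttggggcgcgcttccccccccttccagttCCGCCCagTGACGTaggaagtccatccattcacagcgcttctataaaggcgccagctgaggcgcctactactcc
Npas4: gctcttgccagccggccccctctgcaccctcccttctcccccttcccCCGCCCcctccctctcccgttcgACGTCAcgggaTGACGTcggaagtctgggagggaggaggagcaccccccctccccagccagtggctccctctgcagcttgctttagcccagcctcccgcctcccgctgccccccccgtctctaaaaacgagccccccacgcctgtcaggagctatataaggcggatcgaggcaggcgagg
Col6a1: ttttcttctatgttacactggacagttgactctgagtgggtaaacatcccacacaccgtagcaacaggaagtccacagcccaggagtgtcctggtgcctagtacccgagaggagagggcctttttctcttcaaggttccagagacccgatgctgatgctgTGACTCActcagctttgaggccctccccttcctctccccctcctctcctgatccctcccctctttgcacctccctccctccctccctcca
Col27a1: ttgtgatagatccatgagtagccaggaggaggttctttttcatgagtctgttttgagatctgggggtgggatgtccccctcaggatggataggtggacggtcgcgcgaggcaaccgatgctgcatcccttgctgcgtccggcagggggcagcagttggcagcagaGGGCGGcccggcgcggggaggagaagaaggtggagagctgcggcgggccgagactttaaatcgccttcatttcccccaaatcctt
A match is a description of letters and not a measured binding site. The core TGACGT occurred in 6.56% of all 27025 RefSeq promoters of this length, the AP-1 site in 6.87%, the GC box in 32.9% and the CArG box in 1.40%. Among the genes described below as higher in KO MEST tissue, 115 had a promoter in the table, of which 14 (12.2%) held an AP-1 site and 3 (2.61%) the response element core. Among 59 lower genes with a promoter, 3 (5.08%) held an AP-1 site, and among 12138 promoters of genes tested, 533 (4.39%) did. The response element core was held by 2 (3.39%) of the lower genes and by 1165 (9.6%) of the genes tested.

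Fabp7 itself was nearly absent from both KO groups, as the labels require. It had 2 to 8 reads in the KO sham libraries (0.125 ± 0.0613 CPM, SD, n = 4) and 0 to 4 reads in the KO MEST libraries (0.0433 ± 0.0393 CPM, SD, n = 5), against 10.2 to 18.0 CPM in the 10 WT libraries. CPM are counts per 1 M reads in genes, scaled by TMM factors that put libraries of different composition on the same scale. The KO sham libraries held 34.3 to 46.3 M reads in genes, with a median of 39.5 M, and the KO MEST libraries held 34.4 to 51.7 M, with a median of 37.0 M. The first principal component of the 9 libraries (23.6% of variance) did not follow treatment and placed KO sham 3 apart, at -30.8 with the other libraries between -11.1 and 20.8. The second component (20.5%) put all sham libraries between -19.9 and -10.2 and all MEST libraries between 0.307 and 15.7, with KO MEST 4 nearest to the sham group. Markers of the labelled tissue were present, with all 16 excitatory neuron markers, all 12 markers of hippocampal fields CA1 to CA3 and all 10 dentate gyrus markers high enough to be tested. Markers of thalamus (10 of 10) and striatum (13 of 13) were also detected.

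Few genes differed between KO MEST and KO sham tissue, and most of them by less than 2-fold. Of 16147 genes tested with limma on log2(CPM + 0.1), 141 were higher in KO MEST than in KO sham tissue (0.873% of genes tested) and 79 were lower (0.489%) at an adjusted p under 0.05, which makes 220 in all (1.36%). The median log2 fold change was 0.44 over the higher and -0.35 over the lower genes. A change of over 2-fold was seen in 11 higher genes (0.0681%) and 4 lower genes (0.0248%), of which 8 had a mean under 2 CPM. The 2 groups did not overlap for 1232 genes (7.63%), with MEST higher in 632 (3.91%) and lower in 600 (3.72%), and 215 of the 220 called genes (97.7%) were of this kind. An unadjusted p under 0.05 was found for 2898 genes (17.9%). Almost all called genes with an annotated type were protein-coding (209 of 213). Their exons were longer in the higher genes (median 4932 bases, n = 138) than in the lower genes (median 3176, n = 75), with 4298 over all genes that have a length, and the Spearman correlation of fold change and length across genes, which are not independent replicates, was 0.075.

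**Figure D1:**
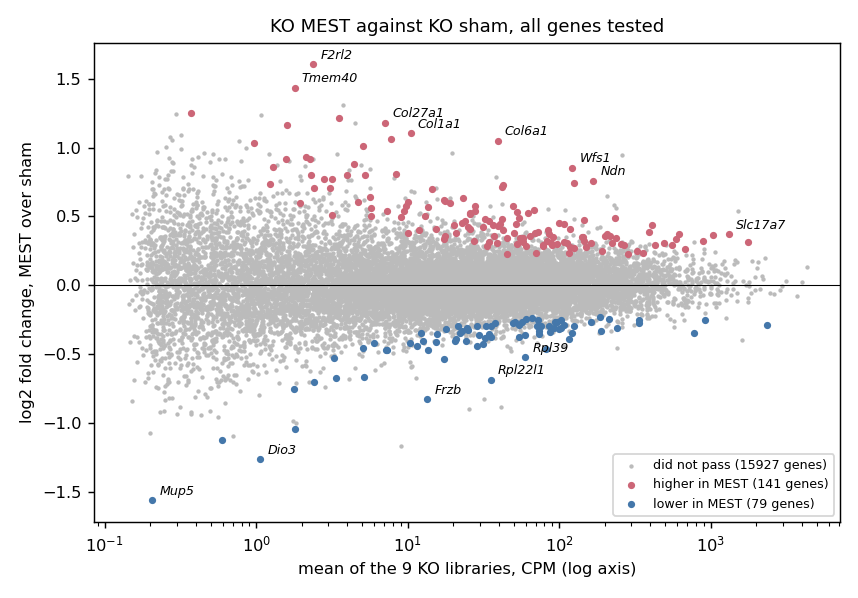
Log2 fold change of KO MEST over KO sham (y axis) against the mean of the 9 KO libraries in CPM (x axis, log scale), with each point a gene tested by limma. The 141 higher and 79 lower genes past an adjusted p of 0.05 lie mostly within 2-fold, and F2rl2 (1.60) and Mup5 (-1.56) mark the ends of their range.

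The number of calls depended on single libraries. Without KO sham 2, 9 genes were higher and 5 lower. The fits without KO sham 5 (26 and 5), KO MEST 1 (24 and 11), KO MEST 2 (28 and 7), KO MEST 5 (25 and 6), KO MEST 3 (56 and 20) and KO sham 4 (82 and 18) also gave fewer calls. Leaving out KO sham 3, the library apart on the first component, raised the counts to 287 and 152, and leaving out KO MEST 4 raised them to 225 and 100. All 220 called genes kept their direction in each of these 9 fits. The 215 whose groups do not overlap could not do otherwise, so this is no separate support. Only 12 of the 220 genes passed in every one of the 9 fits. Of the 12, 9 were higher (Col1a1, Col27a1, Col6a1, Ecm1, F2rl2, Mylk, Ndn, Wfs1 and Cnot3) and 3 lower (Frzb, Rpl22l1 and Rpl39), and all 12 also passed under all other alternative settings. Of these, Mylk, Ndn and Cnot3 were named for this reason after their values were seen. On the whole reads behind the deposited values, edgeR called 140 genes higher and 91 lower, and DESeq2 called 547 and 368. Of the 220 genes, 217 were called by edgeR and 218 by DESeq2.

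**Figure D2:**
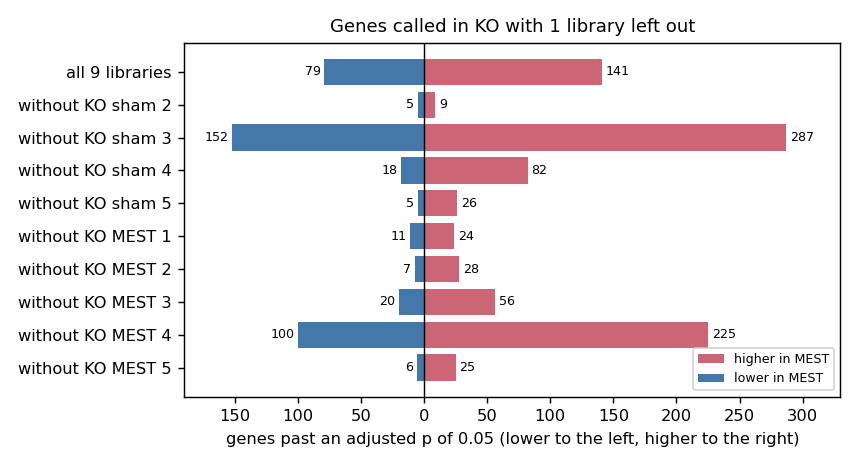
Number of genes past an adjusted p of 0.05 in KO MEST against KO sham (x axis, lower genes to the left of 0 and higher genes to the right) for all 9 libraries and with each library left out in turn. Counts fell to 9 and 5 without KO sham 2 and rose to 287 and 152 without KO sham 3.

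Genes of the extracellular matrix were among the increases. Of 44 collagen and matrix genes tested, 7 rose and none fell, with a median log2 fold change of 0.20 (0.0025 over all genes tested), and 36 had the higher mean in MEST tissue. At an unadjusted p under 0.05 limma found 20 higher and 1 lower, DESeq2 called 15 higher and 1 lower, and with the length trend removed 7 rose and 1 fell. Over all genes tested, limma called 0.873% higher and 0.489% lower, and 17.9% had an unadjusted p under 0.05. The summed level of the list was 930 to 997 CPM in the sham and 1055 to 1214 CPM in the MEST libraries, so the groups did not overlap. This sum includes the 7 genes that rose, so it is no separate support. Among all genes tested, the groups did not overlap for 7.63%. Col27a1, a fibrillar collagen gene on chromosome 4, measured 3.51, 3.75, 3.92 and 5.34 CPM in the sham libraries and 10.2, 12.1, 9.56, 7.37 and 8.27 CPM in the MEST libraries. Every MEST library exceeded every sham library, which the rule for naming the largest increases required. The log2 fold change was 1.18 ± 0.15 (SE; adjusted p = 0.00573; 1.09 to 1.31 with 1 library left out). Col1a1, which encodes the main chain of type I collagen, measured 5.05, 5.07, 8.30 and 7.31 CPM after sham handling and 15.2, 14.1, 11.7, 12.8 and 14.7 CPM after MEST. Its log2 fold change was 1.11 ± 0.15 (SE; adjusted p = 0.00688), again with every MEST library above every sham library.

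Col6a1, a chain of the beaded filament collagen VI, was at 22.1, 28.5, 21.6 and 25.4 CPM in sham and at 65.0, 47.9, 52.2, 38.8 and 51.0 CPM in MEST tissue (2.09-fold by the means, log2 1.05 ± 0.13 SE, adjusted p = 0.00688). KO MEST 4 was lowest and KO MEST 1 highest, and no MEST library came near the sham range. Ecm1, a secreted glycoprotein of the matrix, was at 4.53 to 5.05 CPM in the sham and at 9.52, 12.2, 7.87, 11.1 and 10.3 CPM in the MEST libraries (log2 1.06 ± 0.12 SE, adjusted p = 0.00334). The chains of collagen IV, the network of basement membranes, rose less. Col4a2 was 30.7 ± 2.22 CPM in sham (SD, n = 4) and 50.8 ± 7.64 CPM in MEST tissue (SD, n = 5; log2 0.72, adjusted p = 0.0108), and its neighbour Col4a1 28.3 ± 2.04 and 39.3 ± 3.12 CPM (log2 0.47, adjusted p = 0.0159). The exons of both overlap by 22 bases on opposite strands, and no setting for strand is given for the counting. Col12a1 (log2 0.57, adjusted p = 0.0187) and Col16a1 (0.50, adjusted p = 0.0484) also rose. Col4a2 passed in 8, Col4a1 in 6, Col12a1 in 4 and Col16a1 in 2 of the 9 fits that leave a library out.

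The list of leptomeningeal fibroblast markers had 16 genes tested, of which Col1a1 rose and Igf2, a growth factor made in the meninges and choroid plexus, fell (97.1 ± 10.1 CPM in sham, SD, n = 4, and 70.5 ± 7.26 CPM in MEST, SD, n = 5; log2 -0.46, adjusted p = 0.0271). Of the 16, 9 had the higher and 7 the lower mean in MEST tissue. At an unadjusted p under 0.05 limma found 5 higher and 5 lower, and DESeq2 called 3 higher and 4 lower. Among all genes tested, limma called 1.36%, and 17.9% had an unadjusted p under 0.05. Col1a2, the partner chain of Col1a1, was 1.37-fold higher by the means with groups that did not overlap, and missed the threshold (adjusted p = 0.0525). Col3a1 (log2 0.85, adjusted p = 0.0872) and the proteoglycan gene Dcn (0.37, adjusted p = 0.228) did not pass either. The summed level of the 16 markers was 812 to 1010 CPM in sham and 760 to 877 CPM in MEST libraries, and none was at 0 reads in all libraries. In tissue blocks, a change in the number of cells of a type and a change in RNA per cell cannot be told apart.

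**Figure D3:**
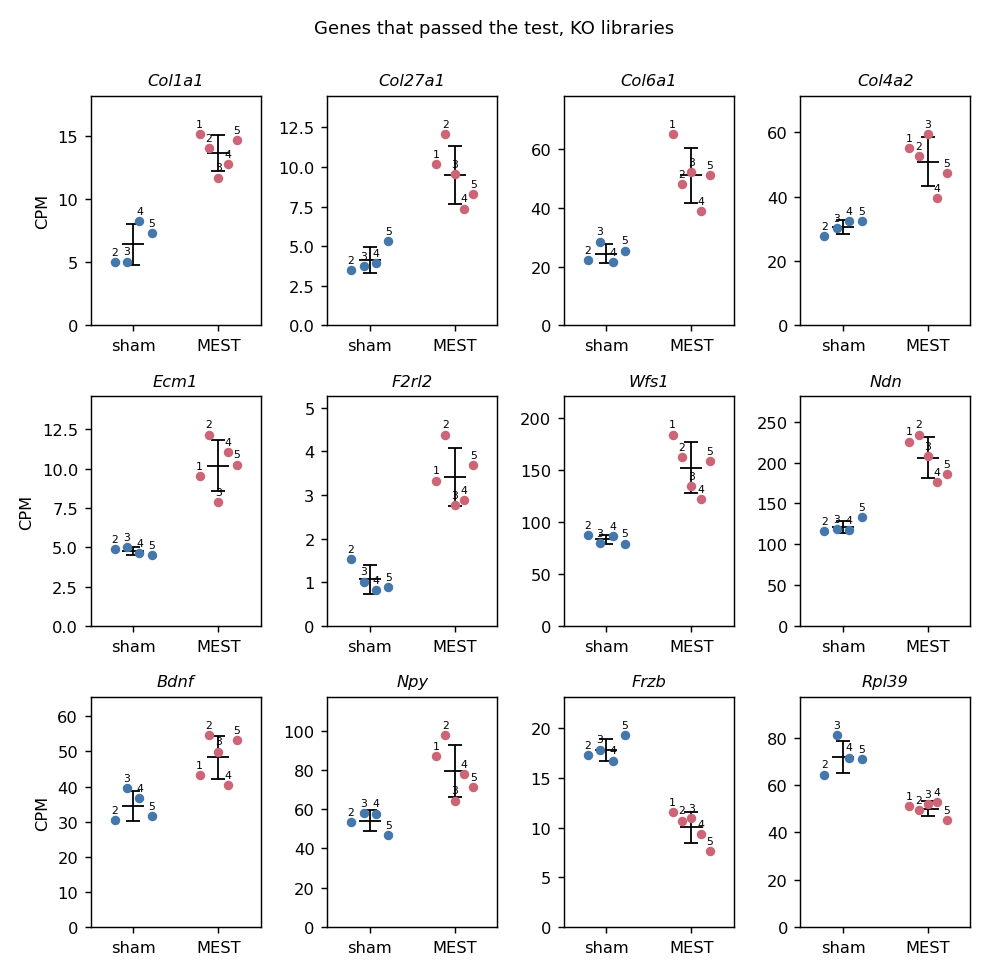
Level in CPM (y axis from 0) of 12 genes that passed the test, in each KO sham (blue) and KO MEST (red) library, numbered by replicate, with black marks for the mean and bars for the SD. The groups do not overlap for any of the 12 genes, as for 215 of all 220 called genes, and this was a condition for naming the largest changes. For Frzb and Rpl39 the MEST libraries are the lower ones.

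Several further increases were of genes with varied roles. F2rl2, the thrombin receptor PAR3, had the largest log2 fold change among higher genes (1.60 ± 0.19 SE, adjusted p = 0.00356). It measured 1.54, 1.02, 0.83 and 0.886 CPM in sham and 3.33, 4.38, 2.77, 2.88 and 3.69 CPM in MEST libraries, and passed with any library left out. Gpnmb, a glycoprotein of microglia and macrophages, was at 1.36 to 2.31 CPM in sham and at 4.04, 7.19, 3.67, 4.54 and 4.22 CPM in MEST tissue (log2 1.22, adjusted p = 0.0171), with KO MEST 2 well above the rest. Mylk, the myosin light chain kinase of smooth muscle, rose from 17.7 ± 0.619 (SD, n = 4) to 27.5 ± 2.26 CPM (SD, n = 5; log2 0.63, adjusted p = 0.00338), with antisense genes over parts of its exons. Cnot3, a subunit of the CCR4-NOT deadenylase complex that shortens mRNA tails, had the tightest groups, with 32.3 to 34.1 CPM in sham and 42.0 to 46.4 CPM in MEST libraries (log2 0.43 ± 0.055 SE, adjusted p = 0.00545). Its exons overlap those of Leng1 by 424 bases on the opposite strand. The remaining genes among the 15 largest increases with at least 2 CPM were Fndc9 (log2 1.01), Ssc5d (0.93), the desmosomal linker gene Ppl (0.92), the sulfatase gene Arsj (0.88), Serinc2 (0.81), Clec18a (0.80), the proliferation marker Mki67 (0.80) and the cell adhesion gene Igsf9 (0.80). They passed in 2 to 6 of the 9 fits with a library left out.

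Wfs1, which encodes the endoplasmic reticulum protein wolframin and marks pyramidal cells of CA1, was at 87.8, 80.0, 86.7 and 79.3 CPM in sham and at 184, 162, 135, 122 and 159 CPM in MEST libraries. This was a 1.83-fold difference of means (log2 0.85 ± 0.10 SE, adjusted p = 0.00545), and Wfs1 passed with any library left out. It was the only one of 12 CA1 to CA3 markers to pass, with a list median of 0.0098, beside 1.36% of all genes tested. Ndn, the imprinted gene of the growth suppressor necdin in postmitotic neurons, was at 116, 118, 118 and 133 CPM in sham and at 226, 234, 208, 176 and 186 CPM in MEST libraries (log2 0.76 ± 0.084 SE, adjusted p = 0.00334). Slc17a7, the vesicular glutamate transporter of cortical neurons, was at 1086, 1063, 1205 and 1162 CPM in sham and at 1630, 1598, 1294, 1356 and 1440 CPM in MEST libraries (log2 0.37, adjusted p = 0.0339). It was the only one of 16 excitatory neuron markers to pass, in 4 of the 9 fits with a library left out.

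Of 29 synaptic and secreted effectors tested, Bdnf and Nptx2 rose and none fell, with a median log2 fold change of 0.15. Among all genes tested 1.36% were called, and counts of 1 or 2 in lists of this size are no result about the families. Bdnf, the neurotrophin of synaptic plasticity, was at 30.4, 39.5, 36.7 and 31.6 CPM in sham and at 43.3, 54.6, 50.0, 40.5 and 53.3 CPM in MEST libraries (log2 0.48 ± 0.10 SE, adjusted p = 0.0415). Nptx2, a pentraxin that gathers AMPA receptors at synapses, was at 33.4, 37.5, 46.3 and 37.7 CPM in sham and at 67.0, 59.3, 47.0, 50.2 and 66.4 CPM in MEST libraries (log2 0.58 ± 0.12 SE, adjusted p = 0.0437). The lowest MEST library lay just above the highest sham library for both. Npy, the peptide of a class of inhibitory neurons, was 54.1 ± 5.32 CPM in sham (SD, n = 4) and 79.6 ± 13.1 CPM in MEST tissue (SD, n = 5; log2 0.55, adjusted p = 0.0415), and it and Bdnf were the 2 of 25 neuropeptide and granin genes to pass. Npy was also the 1 of 17 inhibitory neuron markers to pass with limma. DESeq2 called 1 of these markers higher and 1 lower, and 4 of the neuropeptide genes higher. Dusp5, a phosphatase that switches off ERK in the nucleus, was the 1 of 28 feedback inhibitors to rise (4.61 ± 0.472 and 6.59 ± 0.699 CPM, SD, n = 4 and n = 5; log2 0.51, adjusted p = 0.0415). Each of these 4 genes passed in only 2 or 3 of the 9 fits with a library left out, with adjusted p up to 0.121. The TGF-beta family gene Inhba had a larger fold change (log2 0.84) that missed the threshold (adjusted p = 0.155), with 3.93 to 4.87 CPM in 4 MEST libraries, 8.24 in KO MEST 5 and 1.49 to 3.94 in sham.

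Immediate early transcription factors did not pass in either direction, in a test that called 1.36% of all genes tested. None among 27 is near that share and is no result about the family. None of 27 inducible transcription factors tested was called, by limma, edgeR or DESeq2, with a median log2 fold change of -0.12, and at an unadjusted p under 0.05 limma found 2 higher and 1 lower. Fos was at 41.1, 84.6, 51.9 and 33.4 CPM in sham and at 15.4, 16.6, 60.3, 16.4 and 53.8 CPM in MEST libraries (log2 -0.89 ± 0.54 SE, adjusted p = 0.452). KO MEST 1, 2 and 4 lay below all sham libraries, and KO MEST 3 and 5 within the sham range. Npas4 was at 27.7, 41.6, 34.5 and 21.9 CPM in sham and at 9.93, 8.64, 33.2, 9.38 and 42.9 CPM in MEST libraries (log2 -0.90 ± 0.57 SE, adjusted p = 0.467), with KO MEST 1, 2 and 4 again below all sham libraries and KO MEST 5 just above them. Egr2, a zinc finger factor of the Egr family, was at 7.58, 23.5, 9.93 and 6.86 CPM in sham and at 2.37, 2.73, 16.9, 1.98 and 9.39 CPM in MEST libraries (log2 -1.17 ± 0.73 SE, adjusted p = 0.463). KO MEST 1, 2 and 4 were again the 3 low libraries for Egr1, Fosb, Btg2, Dusp1 and Cyr61, of which Dusp1 is a MAP kinase phosphatase and Cyr61 a secreted matricellular protein. The levels of Egr1 were 261, 409, 313 and 237 CPM in sham and 203, 204, 478, 181 and 346 CPM in MEST libraries (log2 -0.18 ± 0.32 SE, adjusted p = 0.831). Arc, the synaptic capsid-like protein, was at 231 to 461 CPM in sham and at 164 to 440 CPM in MEST tissue (log2 -0.19, adjusted p = 0.856). Its difference turned to 0.025 without KO sham 3, the sham library with the highest Fos, Egr1, Egr2, Npas4 and Arc. The standard errors of these genes were 0.26 to 0.73 on the log2 scale. Those of the 7 collagens, which were picked because they passed, were 0.075 to 0.15. With errors this wide, a missed threshold does not show that the groups are the same.

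**Figure D4:**
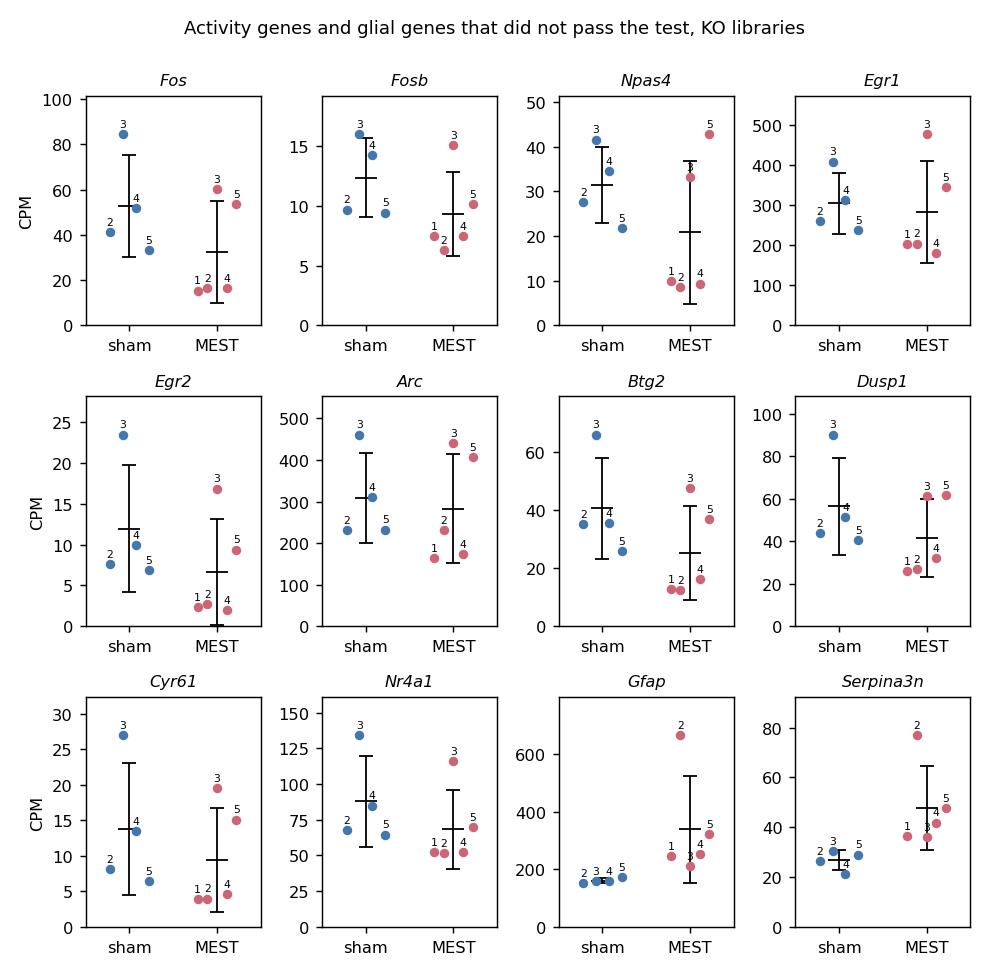
Level in CPM (y axis from 0) of 10 activity genes and 2 glial genes in each KO sham (blue) and KO MEST (red) library, numbered by replicate, with black marks for the mean and bars for the SD. For Fos, Npas4 and Egr2, KO MEST 1, 2 and 4 are below all sham libraries and KO MEST 3 and 5 are not, and for Gfap and Serpina3n KO MEST 2 is the highest library.

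The decreases included genes of small ribosomal and mitochondrial proteins. Frzb, a secreted antagonist of Wnt ligands, was at 17.3, 17.9, 16.8 and 19.3 CPM in sham and at 11.6, 10.7, 11.0, 9.35 and 7.67 CPM in MEST libraries (log2 -0.83 ± 0.11 SE, adjusted p = 0.00622). Rpl22l1, a paralog of the ribosomal protein gene Rpl22, was at 37.0, 47.3, 46.3 and 48.2 CPM in sham and at 28.6, 25.4, 30.2, 29.6 and 24.5 CPM in MEST libraries (log2 -0.69 ± 0.090 SE, adjusted p = 0.00588). Rpl39 was at 64.4, 81.0, 71.6 and 71.0 CPM in sham and at 51.0, 49.4, 51.9, 52.7 and 45.1 CPM in MEST libraries (log2 -0.52 ± 0.072 SE, adjusted p = 0.00688). The sham and MEST libraries did not overlap for any of the 3 genes, which the rule for naming the largest decreases required. The other genes among the 15 largest decreases with at least 2 CPM were 4933412O06Rik (log2 -0.70), Sugct (-0.67), Ngb, the gene of the neuronal globin neuroglobin (-0.67), Lypd6b (-0.54), the endothelin gene Edn1 (-0.53), Rps27l (-0.47), Zxdb (-0.47), the melanocortin receptor accessory gene Mrap2 (-0.47), Igf2, the mitochondrial import gene Timm8a1 (-0.45), Igsf1 (-0.44) and Cd83 (-0.44). They passed in 1 to 4 of the 9 fits with a library left out.

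Of 78 cytosolic ribosomal protein genes, 3 fell (Rpl39, Rps14 and Rpl9) and none rose, with a median log2 fold change of -0.079, and 56 had the lower mean in MEST tissue. DESeq2 called 6 of them lower and the fit with the length trend removed 5, and 19 were lower at an unadjusted p under 0.05. Of all genes tested, limma called 0.489% lower and 0.873% higher. An unadjusted p under 0.05, in either direction, was found for 17.9%. Rps14 was at 124 to 149 CPM in sham and at 98.6 to 107 CPM in MEST libraries (log2 -0.39, adjusted p = 0.0144). Rpl9 fell by 0.33 on the log2 scale (adjusted p = 0.0394). Ribosomal protein genes have many near-identical processed pseudogenes, and since the treatment of reads with several matches is not given, their values are uncertain. Of 73 oxidative phosphorylation genes, 3 fell (Atp5j2, log2 -0.34, Atp5l, -0.30, and Sdhd, -0.27) and none rose, with a median of -0.084. DESeq2 called 12 of these lower and the fit with the length trend removed 5, and 22 were lower at an unadjusted p under 0.05. Of 40 splicing and nuclear RNA genes, Ewsr1, an RNA-binding protein of the FET family, rose (log2 0.24, adjusted p = 0.0415) and none fell, with a median of 0.13, and DESeq2 called 4 higher.

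Some myelin genes were lower in MEST tissue. Of 16 oligodendrocyte markers tested, 4 fell and none rose, with a median log2 fold change of -0.18, while edgeR called 6 lower and DESeq2 7. Among all genes tested, limma called 0.489% lower, and 17.9% had an unadjusted p under 0.05 in either direction. Mog, which encodes a surface protein of myelin, was at 81.8, 87.7, 72.9 and 76.5 CPM in sham and at 63.3, 64.4, 65.2, 64.8 and 65.9 CPM in MEST libraries (log2 -0.30 ± 0.060 SE, adjusted p = 0.0362). All MEST libraries lay below all sham libraries, and Mog passed in 3 of the 9 fits with a library left out. The aspartoacylase gene Aspa (-0.40, adjusted p = 0.0307) and the tight junction gene Cldn11 (-0.27, adjusted p = 0.0415) were also among those that fell. The summed level of the 16 markers was 7935 to 8593 CPM in sham and 7124 to 7758 CPM in MEST libraries. None of 10 oligodendrocyte precursor markers passed with limma (median 0.16), of which 3 were higher at an unadjusted p under 0.05 and 1 was called by DESeq2.

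No marker in the lists for astrocytes or microglia passed the test, which called 1.36% of all genes tested, so none in lists of this size is near that share. Gpnmb, described above, is not in these lists. None of 16 astrocyte markers (median log2 fold change -0.017), 15 microglia markers (0.031) and 20 reactive gliosis genes (0.069) passed with limma or edgeR. At an unadjusted p under 0.05 limma found 2 astrocyte markers higher and 3 lower, 3 microglia markers higher and 2 lower, and 4 gliosis genes higher and 1 lower, and DESeq2 called 1, 1 and 3 of these lists. With the length trend removed, limma called 1 astrocyte marker lower. Gfap, the intermediate filament of astrocytes that rises in gliosis, was at 152, 158, 159 and 172 CPM in sham and at 246, 666, 212, 253 and 322 CPM in MEST libraries. All MEST libraries were above all sham libraries, and KO MEST 2 was far above the others. The log2 fold change was 0.95 ± 0.32 (SE; adjusted p = 0.175), and without KO MEST 2 it was 0.67 and passed (adjusted p = 0.0334). DESeq2 also called Gfap (adjusted p = 0.040). The acute phase gene Serpina3n, another marker of reactive astrocytes, was at 21.2 to 30.4 CPM in sham and at 36.5, 76.9, 36.1, 41.9 and 47.6 CPM in MEST libraries (log2 0.79, adjusted p = 0.115), again with KO MEST 2 highest. Vim was highest in KO MEST 2 as well (74.5 CPM, with 40.4 to 48.2 in the other MEST libraries). The summed level of the gliosis list was 366 to 397 CPM in sham and 441 to 984 CPM in MEST libraries, highest in KO MEST 2.

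Markers of structures beside the cortex and hippocampus were measured because their share in a dissected block can vary. All 15 choroid plexus markers had the lower mean in MEST tissue (median log2 fold change -0.31), and with limma Enpp2, which encodes autotaxin, passed (882 ± 79.8 CPM in sham, SD, n = 4, and 695 ± 65.6 CPM in MEST, SD, n = 5; log2 -0.35, adjusted p = 0.0457). Among all genes tested, limma called 1.36%, and 17.9% had an unadjusted p under 0.05. At an unadjusted p under 0.05, 8 of the 15 choroid plexus markers were lower, and DESeq2 called 5 lower. Their summed level was 2055 to 2934 CPM in sham and 1758 to 2252 CPM in MEST libraries, and Ttr, the transthyretin gene of the plexus, was at 1076 to 1739 and 962 to 1351 CPM. Of 15 endothelial markers, Slco1a4, an organic anion transporter of the blood-brain barrier, fell (log2 -0.28, adjusted p = 0.0406), DESeq2 called 2 lower, and the summed level was 506 to 530 CPM in sham and 453 to 489 CPM in MEST libraries. None of 12 pericyte and smooth muscle, 10 ependymal, 10 thalamus, 13 striatum and 3 tested blood markers passed with limma, edgeR or DESeq2 (at an unadjusted p under 0.05, 1 pericyte and 2 ependymal markers were lower, and 1 striatum marker was higher and 1 lower), and 3 of 12 blood markers had no read in any of the 9 libraries. The part of these marker differences in the other results was not tested.

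Each list of metabolic, stress and signalling genes had at most 1 gene past the limma threshold, beside 1.36% of all genes tested. Counts this small are near that share. Over all genes tested, 17.9% had an unadjusted p under 0.05. All 24 cholesterol synthesis and uptake genes had the higher mean in MEST tissue (median log2 fold change 0.14), none passed with limma or edgeR, 9 were higher at an unadjusted p under 0.05, and DESeq2 called 4. Hmgcs1, the enzyme that commits acetyl units to sterol synthesis, was at 273 to 351 CPM in sham and at 340 to 413 CPM in MEST libraries (log2 0.29, adjusted p = 0.0863). Of 34 fatty acid and lipid droplet genes, Fads2, a desaturase of polyunsaturated fatty acids, rose (log2 0.31, adjusted p = 0.0353). None of the 6 members of the Fabp family that could be tested passed with limma, also at an unadjusted p under 0.05, or with edgeR or DESeq2, and Fabp5, the member that astrocytes and other brain cells share, was at 83.0 to 119 CPM in sham and at 96.3 to 134 CPM in MEST libraries. Aldoa, an aldolase of glycolysis, was the 1 of 28 glycolytic genes to rise (1487 to 1670 CPM in sham and 1770 to 2070 CPM in MEST; log2 0.31, adjusted p = 0.0317). The clock gene Per2 rose alone among 20 (42.1 ± 6.17 CPM, SD, n = 4, and 60.7 ± 7.48 CPM, SD, n = 5; log2 0.53, adjusted p = 0.0362), as did Shmt2, a mitochondrial enzyme of serine metabolism, among 20 genes of the integrated stress and unfolded protein response (log2 0.34, adjusted p = 0.0415) and Mapk7, the kinase ERK5, among 30 kinase cascade genes (log2 0.40, adjusted p = 0.0415). The GABA receptor subunit gene Gabrg1 fell, alone among 36 glutamate and GABA receptor genes (log2 -0.28, adjusted p = 0.0471). DESeq2 called 4 glycolytic genes, 4 receptor genes and 2 genes in each of the fatty acid, clock and kinase cascade lists. None of 22 glucocorticoid-responsive, 25 heat shock, 15 cytokine and 40 voltage-gated channel genes and 10 dentate gyrus markers passed with limma or edgeR. DESeq2 called 1, 2, 2, 1 and 2 of these lists in this order, and at an unadjusted p under 0.05 limma found 4, 6, 1, 1 and 1 higher and 1, 0, 2, 3 and 2 lower. With the length trend removed, limma called 1 cytokine gene and 2 dentate gyrus markers lower.

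A few genes under 2 CPM changed by more than 2-fold and rest on few reads. Tmem40 was at 0.664 to 1.13 CPM in sham and at 1.66 to 3.22 CPM in MEST libraries (log2 1.44, adjusted p = 0.0108). Atp2c2, a Golgi calcium pump, had a log2 fold change of 1.16, and Dgat2l6, with 4 to 43 reads per library, of 1.25. On the lower side, Dio3, the imprinted deiodinase that inactivates thyroid hormone, was at 1.06 to 2.02 CPM in sham and at 0.381 to 1.10 CPM in MEST libraries (log2 -1.27, adjusted p = 0.0424), so the groups overlapped slightly. Mup5 (log2 -1.56, with 0 to 17 reads), which belongs to a family of near-identical genes, Zcchc5 (-1.13, with 9 to 41 reads) and Rpe65 (-1.04) were the others. The locus of Mir1900, a microRNA gene, had 18 to 73 reads per library and a log2 fold change of 1.03 (adjusted p = 0.0362). Poly(A) libraries do not measure a mature microRNA, and the hairpin lies within an exon of the longer transcript Gm47079 on the same strand, so these reads cannot be assigned to it. The mature sequence is given for identification, at chr9:21032261-21032282 on the minus strand (RefSeq, GRCm38.p6), with its seed, bases 2 to 8, in capitals.
miR-1900: gGCCGCCCucucugguccuuca

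The same contrast in WT mice is given beside these values. The WT sham libraries stand apart from the other 14 when component 1 is computed over all 19 (-30.8 to -20.4, against 1.64 to 14.2 for the rest), and the WT sham mice were also the youngest, so the WT contrast and every difference between genotypes rest on a group that differs in more than treatment. In WT tissue 2109 of 16080 genes tested were higher (13.1%) and 1837 were lower (11.4%) in MEST. A test of the difference of the 2 MEST effects, KO minus WT, over 16596 genes found 1602 higher (9.65%) and 1485 lower (8.95%). Of the inducible transcription factors, 17 of 27 were lower and 1 was higher in WT MEST tissue, and for 7 of 27 the difference between genotypes passed, all of them higher in KO. Npas4 was at 37.2 to 65.5 CPM in WT sham and at 5.07 to 8.41 CPM in WT MEST libraries (log2 -2.96), and its difference was 2.07 (adjusted p = 0.0239). Egr1 differed by 1.40 (adjusted p = 0.0248). Fos was at 40.4 to 115 CPM in WT sham and at 10.3 to 21.5 CPM in WT MEST libraries (log2 -2.17), but its difference of 1.29 did not pass (adjusted p = 0.185). The lowest KO MEST libraries for Fos thus had values within the WT MEST range, and KO MEST 3 and 5 were above it.

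The MEST effect on part of the matrix genes differed between genotypes. The difference passed for 15 of 44 collagen and matrix genes, all higher in KO, and in WT tissue 3 rose and 12 fell. Over all genes tested, the difference passed as higher for 9.65% and as lower for 8.95%, and in WT tissue 13.1% rose and 11.4% fell. All these values rest on the WT sham group that stands apart, and its part in them was not tested. Col27a1 was 8.83 ± 1.13 CPM in WT sham (SD, n = 5) and 5.78 ± 1.80 CPM in WT MEST tissue (SD, n = 5), and differed by 1.83 (adjusted p = 6.94e-06), while Col6a1 differed by 1.41 (adjusted p = 0.000251). Col1a1 rose in WT tissue also (log2 0.69, adjusted p = 0.000381), with a difference of 0.43 that did not pass (adjusted p = 0.152). F2rl2 was higher in both genotypes (0.94 in WT, adjusted p = 0.0165; difference 0.67, adjusted p = 0.216). Bdnf (0.25 in WT; difference 0.24, adjusted p = 0.303), Nptx2 (0.74; -0.16, adjusted p = 0.793) and Gfap (0.55; 0.41, adjusted p = 0.449) showed no difference past the threshold. Ribosomal protein genes moved the other way in WT tissue, with 41 of 78 higher and 8 lower, and the difference was lower in KO for 39 and higher for 2. Oxidative phosphorylation genes had 42 of 73 higher and 8 lower in WT tissue, and splicing genes 2 higher and 26 lower of 40, with the difference higher in KO for 26 and lower for 1. Among the genes with the smallest p of the difference were Gapdh (1.07), Cnot3 (0.83), Ewsr1 (0.79) and Gas8 (1.16) on the higher side and Rps14 (-1.23), Rpl39 (-1.13), Sar1b (-0.89), Atp5e (-1.67) and Myeov2 (-1.15) on the lower side. Of these, Ewsr1 had a log2 fold change of 0.24 in KO and -0.53 in WT tissue when each genotype was fitted on its own.

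**Figure D5:**
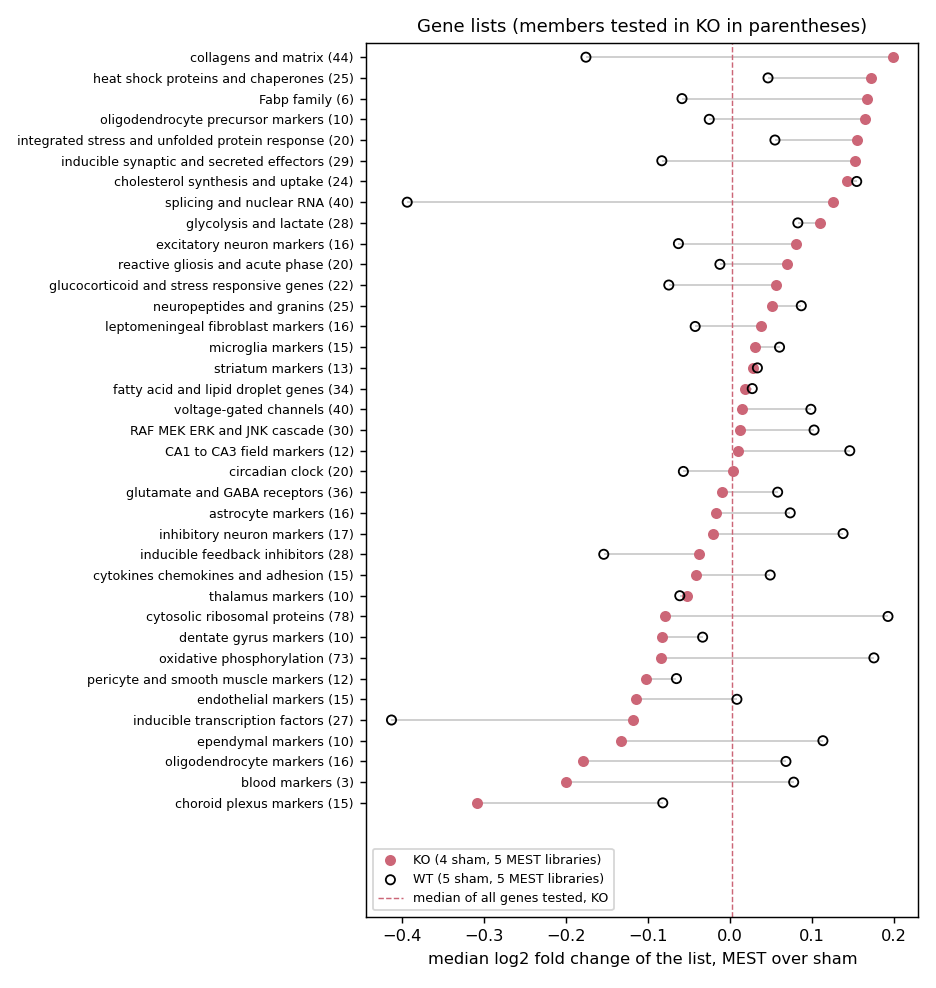
Median log2 fold change of MEST over sham (x axis) for each gene list (y axis, members tested in KO in parentheses), in KO (filled) and WT mice (open), with a dashed line at the median of all genes tested in KO (0.0025). Collagens and matrix have the highest median in KO (0.20) and choroid plexus markers the lowest (-0.31), and splicing genes and inducible transcription factors have the lowest WT medians (-0.39 and -0.41).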

How the data were processed

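RNA-seq libraries of poly(A) RNA were made with a stranded kit from 19 mice. Per the labels and methods, the authors trimmed reads with Trimmomatic 0.39, aligned them to mm10 with HISAT2 2.2.1, counted genes with featureCounts (Subread 2.0.3) and normalized with DESeq2 1.36.0; strand and multiple-match settings are not given in the sources used here. The deposited values are a normalized signal, the read count divided by 1 size factor per library, in a table per genotype. The tables also hold the authors' fold changes and p-values, which were not used. In every library 100% of values were whole reads (tolerance 0.01) after division by the smallest value above 0. Of 24421 symbols, 27 had become dates and were left out (at most 0.384% of reads), leaving 24394. No other columns of libraries were present.

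Reads were scaled to CPM with TMM (edgeR 4.0.16). Genes with at least 0.2 CPM in 4 libraries (5 in WT) were tested with limma 3.58.1 under R 4.3.3 (log2 of CPM + 0.1, intensity trend, robust variances) with Benjamini-Hochberg adjustment, threshold 0.05. Fold changes on this scale understate changes of low genes. KO and WT were fitted separately, and the difference of effects over all 19 libraries. Named genes were Fabp7, the 15 largest increases and decreases among genes past the threshold with groups that do not overlap and a mean of at least 2 CPM, up to 4 members per direction of each list, activity genes of at least 2 CPM, and the 5 smallest p of the difference in each direction. Some genes that this rule named are not reported here. The members, the 37 lists (862 genes, 1 not matched) and the tests were chosen with earlier results of these data known. Alternatives were edgeR and DESeq2 1.42.0 on the whole reads, median-of-ratios factors, column totals, pseudocounts of 0.5 and 1, no filter and 1 CPM, the 4 groups in a joint fit, the replicate number as a block, removal of a length trend (loess, span 0.5) and each library left out. Scripts were tested on simulated data. Coordinates come from GENCODE vM21, which held 95.7% of the symbols. No 2 libraries of a KO group agreed within sampling noise.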

Additional observations from a re-analysis of the deposited data

Results flagged for a closer look

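The MEST effect differed between the genotypes, by the test of the difference itself at an adjusted p under 0.05, for 52 of the genes named in the report. Over all 16596 genes tested it differed for 3087 (18.6%). Many named genes were chosen by their KO effect or by this difference, so the count of 52 is no result about them. The values below are log2 differences, KO minus WT. The WT sham libraries stand apart from all others, so these differences rest on that group, and its part in them was not tested. In the matrix group the effect was higher in KO for Col27a1 (1.83), Col6a1 (1.41), Col4a2 (1.14), Col4a1 (0.69), Col12a1 (0.63), Col16a1 (1.16), Ecm1 (0.73) and Ssc5d (1.40). The difference, KO minus WT, was above 0 for the activity and other genes Npas4 (2.07), Egr1 (1.40), Dusp5 (0.67), Per2 (0.59), Wfs1 (0.60), Gpnmb (1.09), Mki67 (1.00), Fndc9 (0.87), Ppl (0.89), Arsj (0.60) and Mylk (0.41). It was also above 0 for Cnot3 (0.83), Shmt2 (0.46), Fads2 (0.56), Mapk7 (0.65), Ewsr1 (0.79), Mir1900 (1.80), Gapdh (1.07) and Gas8 (1.16). The effect was lower in KO for the ribosomal and mitochondrial genes Rps14 (-1.23), Rpl39 (-1.13), Rpl22l1 (-1.03), Rps27l (-1.62), Rpl9 (-0.63), Atp5e (-1.67), Atp5j2 (-0.86), Atp5l (-0.58) and Sdhd (-0.57). It was lower for the myelin and endothelial genes Mog (-0.39), Aspa (-0.49), Cldn11 (-0.66) and Slco1a4 (-0.24), and for Frzb (-0.63), 4933412O06Rik (-0.81), Sugct (-0.96), Ngb (-1.19), Lypd6b (-0.47), Zxdb (-1.23), Mrap2 (-0.63), Timm8a1 (-0.86), Cd83 (-0.76), Gabrg1 (-0.56), Sar1b (-0.89) and Myeov2 (-1.15).

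Single libraries lay far from the rest of their group for 13 of 186 groups of values, by Dixon's criterion, which chance meets in about 1 of 20 groups. KO MEST 2 was the highest MEST library for Gfap (666 CPM, with 212 to 322 in the other MEST libraries), Vim (74.5 CPM, with 40.4 to 48.2), Serpina3n (76.9 CPM, with 36.1 to 47.6), Fabp5 (134 CPM, with 96.3 to 107), Gpnmb (7.19 CPM, with 3.67 to 4.54) and Col1a2 (25.8 CPM, with 21.5 to 22.8). KO MEST 3 was highest for Nr4a1 (116 CPM, with 51.6 to 69.6), and KO MEST 5 for Inhba (8.24 CPM, with 3.93 to 4.87). KO MEST 4 was the lowest for Ewsr1 (188 CPM, with 210.0 to 212 in the others). Among the sham libraries, KO sham 3 was the lowest for Col4a1 (25.3 CPM, with 29.0 to 29.5) and the highest for Sar1b (59.4 CPM, with 52.5 to 53.2), and KO sham 5 was the lowest for Ppl (1.40 CPM, with 1.48 to 1.49) and the highest for Ndn (133 CPM, with 116 to 118).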

How the results depend on the processing

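Under the 21 alternatives, all 68 named genes past the threshold kept their direction, and 12 stayed past it in every one. Where groups do not overlap, leaving out a library cannot reverse the direction, so the kept direction adds little. Counts of genes moved. DESeq2 on the recovered reads gave 547 higher and 368 lower genes, with 19 over 2-fold higher, and a fit of all 19 libraries gave 317 and 214. Without a filter on low values 42 and 15 genes passed (7 and 1 over 2-fold), among more genes tested. Removing the trend on length gave 148 lower genes. Pseudocounts of 0.5 and 1 left 7 and 4 genes over 2-fold higher and 0 over 2-fold lower, because a larger pseudocount shrinks the fold of low genes, and a filter at 1 CPM left 2 over 2-fold lower. With 1 library left out, higher genes ranged from 9 to 287, lower genes from 5 to 152, and those over 2-fold from 5 to 19 and from 0 to 3. The cause of the other shifts was not tested. Arc, which did not pass, ranged from -0.38 to 0.025 on the log2 scale with 1 library left out and changed sign without KO sham replicate 3. Counts in WT mice and of the difference between genotypes stayed within 1.5 times under all settings run.

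The groups share replicate numbers, but same-numbered libraries did not deviate together (correlations of 0.020, 0.28, 0.037 and 0.0011 over 4 pairs, with 1 of 4 sham libraries closest to its own number), so the numbers were not taken as pairs. With the replicate number as a block, 70 genes were higher and 41 lower, with 7 and 2 over 2-fold, and the block with the length trend removed gave 159 lower genes. Of the 220 genes, 76 were called with the block.

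Limits are the small groups, the ages that do not overlap between sham and MEST mice, the missing time between seizure and tissue, and a tissue block with variable neighbouring structures. p-values measure the spread between mice, 1 library each. Genes with few reads carry wide errors. Exons of Bdnf, Dusp5, Ewsr1 and Igf2, among others, overlap those of other genes, so their counts depend on counting settings that are not given.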
